A study of Mus musculus with 12 samples.

Results

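The comparison of LPS with 6-shogaol at 10 µM against LPS alone rested on 4 of the 12 RNA-seq libraries of the series, 2 of each group, chosen by their labels alone, and covered all 12705 genes that passed the count filter. All libraries came from BV2, an immortalized mouse microglial cell line, moved to serum-free medium 24 h after seeding and held there for 4 h or longer. LPS (lipopolysaccharide, the endotoxin of Gram-negative bacteria) was given at 100 ng/mL. In the compound groups, 6-shogaol or 6-gingerol was given 1 h before LPS. The groups used here were untreated cells, LPS alone, LPS with 10 µM 6-gingerol, LPS with 10 µM 6-shogaol and LPS with 30 µM 6-shogaol. No group received 6-shogaol without LPS. The time from LPS to harvest, and whether the 2 libraries of a group came from separate cultures, are not given in the sources used here, so the p-values measure only the spread between these libraries.

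LPS is sensed by the receptor TLR4 with its co-receptors CD14 and MD-2. One branch, through the adaptor MyD88, releases the transcription factor NF-kB and drives genes of cytokines, chemokines and acute-phase proteins. The other, through TRIF and IRF3, induces interferon beta, which acts back on the cell through its receptor to raise antiviral genes. 6-Shogaol is the dehydration product of 6-gingerol, both pungent phenols of ginger, and its α,β-unsaturated ketone can react with thiols such as those of KEAP1, the protein that holds back the antioxidant regulator NRF2.

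The 4 libraries held between 16534960 and 21179867 expected counts. Microglial and macrophage genes were high in them, with means of 492 CPM for Csf1r, 201 CPM for Itgam and 765 CPM for Cd68 in the LPS libraries (CPM, the count of a gene relative to its library's TMM-scaled total). The homeostatic microglial markers Sall1, Gpr34 and Fcrls were at 0 in all 4 libraries, and P2ry12 and Cx3cr1 averaged 0.567 and 0.902 CPM with LPS, so these markers of resting brain microglia were at or near 0. Of 52 markers of other cell types, Gfap and Rbfox3 among them, 10 passed the count filter. The summed CPM of the fibroblast and endothelial list was 129 and 132 with LPS and 160 and 166 with 6-shogaol, with Kdr at means of 128 and 161 CPM. DESeq2, limma-voom and edgeR on all 12 libraries called no marker of another cell type (2 intervals lay above 0 and 2 below). Fitted on the 4 compared libraries alone, edgeR called 1 astrocyte marker and 1 fibroblast or endothelial marker higher. Mean fragment length was 237 and 223 bases in the LPS libraries and 247 and 248 bases in the 6-shogaol libraries. With fragment length as a covariate in the fit, 48 genes were called against LPS (3 higher and 45 lower).

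With 10 µM 6-shogaol, levels of many inflammatory and interferon-response genes that LPS raises were lower than with LPS alone, and few other genes were called. Of 12705 genes, 73 were called lower (0.575%) and 8 called higher (0.063%) in edgeR's quasi-likelihood test at an adjusted p under 0.05, 81 in either direction (0.638%). Il6, Ccl5, Cfb, Cxcl10 and Isg15 led the lower genes of high level. The median log2 fold change over all genes was -0.001, and for 8579 genes (67.5%) the 95% interval lay within a 1.5-fold change in either direction. At an unadjusted p under 0.05, 1378 genes (10.8%) passed. Of the 12274 genes outside the LPS-raised and LPS-lowered sets described below, 644 had a 95% interval below 0 and 537 above it. The count of 81 ran from 18 without 6-shogaol replicate 2 to 970 when the 4 libraries were fitted alone. All 81 kept their direction with each of the 4 libraries left out, and 17 kept their call in all 4 cases, among them Il6, Ccl5, Cfb, Cxcl10, Isg15, Ifit1, Rsad2, Tnf, Il1rn, Traf1, Ccl2 and Marco, while 37 lost it in all 4. Of the lower genes, 70 were protein-coding. The plot of all genes shows the called lower genes below a dense band around 0.

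**Figure D1:**
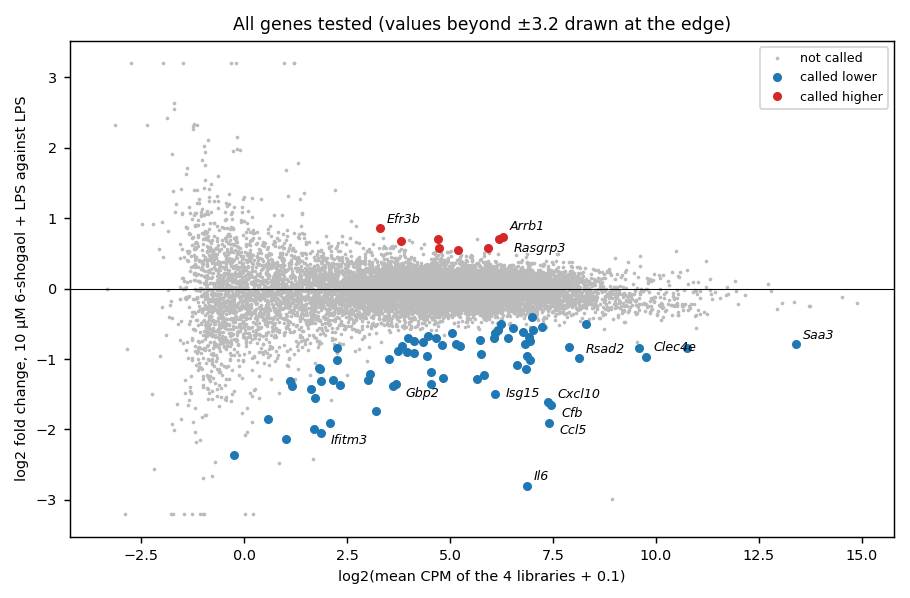
Log2 fold change of 10 µM 6-shogaol with LPS against LPS (vertical axis) by mean level of the 4 libraries (horizontal axis, log2 CPM) for the 12705 genes tested; each point is a gene. The 73 genes called lower (blue) reach -2.80 at Il6, and the 8 called higher (red) reach 0.86 at Efr3b.

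Among cytokines, Il6, which encodes interleukin 6, an inducer of the acute-phase response, fell the most. Its level was 212 and 194 CPM in the LPS libraries and 32.9 and 25.5 CPM with 10 µM 6-shogaol, against 9.75 and 6.33 CPM in untreated cells. The groups did not overlap, which adds no support to a call made on these same libraries. The 6-shogaol libraries kept 14.4% of the LPS level. The log2 fold change was -2.80 (SE 0.17, 95% interval -3.15 to -2.45, edgeR adjusted p = 2.04e-07). Of 20 cytokine genes listed, 13 passed the count filter, 4 of these were called lower and none higher, and the median log2 fold change was -0.64 against -0.001 for all genes.

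Tnf, the gene of tumour necrosis factor, was at 144 and 155 CPM with LPS and 89.2 and 96.9 CPM with 6-shogaol (log2 fold change -0.68, SE 0.09, edgeR adjusted p = 0.0011). Il1rn, whose product blocks the interleukin 1 receptor and so restrains inflammation, went from 73.1 and 68.8 CPM to 30.0 and 28.2 CPM (-1.29, SE 0.14, adjusted p = 0.000183). Lta, the gene of lymphotoxin alpha, was low, at 5.69 and 4.33 CPM with LPS and 1.41 and 1.11 CPM with 6-shogaol (-1.99, SE 0.29, adjusted p = 0.00252). None of these 3 called genes overlapped between the groups, while 27.2% of all genes had both 6-shogaol libraries below both LPS libraries. They were called on these same libraries, so the lack of overlap adds no support. The call of Lta was lost without 6-shogaol replicate 2 (-1.81). Il1a did not pass the test, at 89.9 and 88.1 CPM with LPS and 56.9 and 60.2 CPM with 6-shogaol (-0.60, edgeR adjusted p = 0.0917). Il1b stayed at or below 1.38 CPM in all 4 libraries, and Ifnb1, the interferon beta gene, was below the count filter with at most 0.0476 CPM.

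Of 11 chemokine genes tested, 6 were called lower and none higher, with a median of -0.83. Ccl5, which attracts T cells and monocytes, was at 246 and 289 CPM with LPS and 73.0 and 69.5 CPM with 6-shogaol (-1.91, SE 0.18, edgeR adjusted p = 9.21e-05). Cxcl10, a ligand of CXCR3 on activated T cells, was at 245 and 257 CPM with LPS and 83.2 and 82.1 CPM with 6-shogaol (-1.60, SE 0.11, adjusted p = 1.74e-06). Neither gene overlapped between the groups (27.2% of all genes had both 6-shogaol libraries below both LPS libraries). Since both were called on these same libraries, this adds no support. The 6-shogaol mean was 26.6% of the LPS mean for Ccl5 and 32.9% for Cxcl10. Untreated cells had under 2 CPM of either gene in each library, so both stayed above the untreated level with 6-shogaol. The monocyte attractants Ccl2 (82.3 and 76.7 to 32.9 and 34.7 CPM, -1.23) and Ccl7 (2.97 and 3.33 to 0.763 and 0.677 CPM, -2.13) also fell, as did Ccl4 (-0.96) and the neutrophil attractant Cxcl2 (63.1 and 68.8 to 41.1 and 38.5 CPM, -0.73). Cxcl2 lost its call without any 1 of the 4 libraries (-0.79 to -0.67), and Ccl4 (-1.05 to -0.87) and Ccl7 (-2.21 to -2.04) kept theirs only without LPS replicate 1. Ccl3 was at 861 and 999 CPM with LPS and 513 and 589 CPM with 6-shogaol, without overlap, and did not pass the test (-0.76, edgeR adjusted p = 0.0879).

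Inflammatory effectors made up 8 of the called genes, of 30 tested, with none higher and a median of -0.51. Both 6-shogaol libraries lay below both LPS libraries for 26 of the 30, against 27.2% of all genes. Cfb, the gene of complement factor B of the alternative pathway, was at 261 and 267 CPM with LPS and 88.1 and 80.5 CPM with 6-shogaol (-1.65, SE 0.09, edgeR adjusted p = 1.73e-07), and at 0.308 and 0.233 CPM in untreated cells. Of the CPM that LPS had added over untreated cells, 31.9% was left for Cfb, 26.2% for Ccl5 and 10.9% for Il6. Saa3, an acute-phase serum amyloid gene of very high level, was at 13290 and 14080 CPM with LPS and 8782 and 7100 CPM with 6-shogaol (-0.79, SE 0.15, edgeR adjusted p = 0.0228). Its call did not hold with any of the 4 libraries left out, where the value ranged from -0.944 to -0.635, or with fragment length as a covariate (-0.645). Per transcript length, Saa3 stood at 44670 TPM (RSEM's unit scaled by length) with LPS, against 233 TPM for Il6 and 868 TPM for Ccl5.

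The other effectors called lower were Clec4e, the receptor for mycobacterial cord factor (1172 and 1122 to 602 and 570 CPM, -0.97), the scavenger receptor Marco (308 and 303 to 170 and 173 CPM, -0.83), the iron-binding protein gene Lcn2 (2267 and 2142 to 1215 and 1232 CPM, -0.85), the co-stimulatory receptor Cd40 (40.0 and 40.0 to 26.4 and 25.5 CPM, -0.63) and a pair of prostaglandin E2 enzymes, Ptgs2 (-0.63) and Ptges (-0.70). None of these 6 overlapped between the groups, while 27.2% of all genes had both 6-shogaol libraries below both LPS libraries. They were named for their calls, so the lack of overlap adds no support. Marco kept its call without each library, Clec4e lost it without either 6-shogaol library (-1.01 and -0.92), and Lcn2, Cd40, Ptgs2 and Ptges lost it in every case, so that 2 or 3 effectors were then called. Nos2, which encodes the inducible nitric oxide synthase, was at 197 and 186 CPM with LPS and 116 and 147 CPM with 6-shogaol (-0.54, interval excluding 0, edgeR adjusted p = 0.335). Acod1, the itaconate-producing enzyme gene, was at 1203 and 1153 CPM and 857 and 953 CPM (-0.38, adjusted p = 0.238). Both were lower in both 6-shogaol libraries without passing the test.

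**Figure D2:**
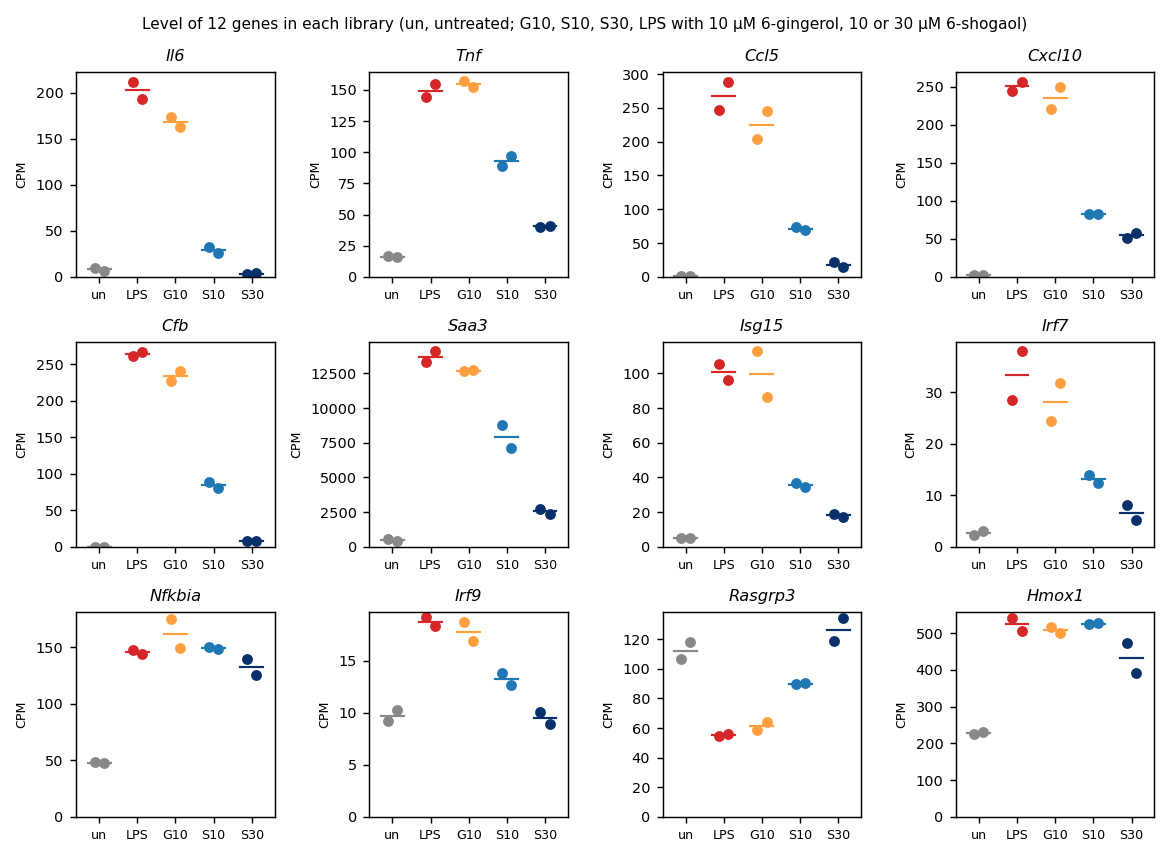
CPM (vertical axis, linear from 0) of 12 genes in each library of 5 groups (horizontal axis); points are the 2 libraries and the line is their mean. Il6, Ccl5, Cxcl10, Cfb and Isg15 drop between LPS and 10 µM 6-shogaol, Nfkbia and Hmox1 stay level between these groups, and Rasgrp3 is higher with 6-shogaol.

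The genes that carry the LPS signal showed little difference. In the list of the TLR4 receptor complex and its adaptors, 1 of 18 genes was called lower and none higher, with a median of 0.01. The called gene was Cd14, the co-receptor that hands LPS to TLR4, at 144 CPM in each LPS library and 84.8 and 82.4 CPM with 6-shogaol (-0.78, SE 0.12, edgeR adjusted p = 0.00397). Untreated cells had 141 and 115 CPM of Cd14, above both 6-shogaol libraries (-0.62 against untreated, edgeR adjusted p = 0.00362, in a comparison with 2.88% of genes called lower). Krt23, a keratin gene, was the only other called gene below untreated, at a mean of 15.1 ± 0.0947 CPM (SD, n = 2) with 6-shogaol against 30.4 ± 4.84 CPM (SD, n = 2) in untreated cells (-1.01). Tlr4 was at 61.5 and 57.2 CPM with LPS and 60.8 and 53.1 CPM with 6-shogaol (-0.06), and Myd88 differed by -0.07 on the log2 scale. No other gene of the TLR4 list had an interval that excluded 0. The calls of Cd14 (-0.80 to -0.75) and Krt23 (-0.83 to -0.67) held without LPS replicate 1 and were lost without each of the other 3 libraries.

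In the list of NF-kB subunits, kinases and feedback genes, 1 of 26 was called lower and none higher, with a median of -0.05. That gene was Traf1, a receptor adaptor and NF-kB target, at 40.6 and 40.1 CPM with LPS and 17.2 and 16.4 CPM with 6-shogaol (-1.27, SE 0.13, edgeR adjusted p = 9.2e-05). Nfkbia, the inhibitor gene that NF-kB itself induces, was at 148 and 144 CPM with LPS and 150 and 148 CPM with 6-shogaol. Its log2 fold change of 0.03 had a 95% interval of -0.17 to 0.24, while untreated cells had 48.3 and 47.2 CPM. Tnfaip3, the gene of the NF-kB inhibitor A20, differed by -0.09, Nfkb1 by 0.08 and Rela by -0.06. Of the other members, Bcl2a1d (-0.59) was lowest, and 4 intervals in the list lay below 0 and 1 above.

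The antiviral effectors of interferon were the list with the most genes tested and held more called genes than any other of the 31 lists. By share of tested members they did not lead, since 6 of 11 chemokine genes were called. Of 46 antiviral genes tested, 14 were called lower, none higher, and 43 lay below 0, with a median of -0.58. Both 6-shogaol libraries lay below both LPS libraries for 40 of the 46, against 27.2% of all genes. With 1 of the 4 libraries left out, 7 (6-shogaol replicate 2), 8 (6-shogaol replicate 1 or LPS replicate 2) or 11 (LPS replicate 1) of the 46 were called lower. Isg15, a ubiquitin-like modifier, was at 105 and 96.1 CPM with LPS and 37.0 and 34.6 CPM with 6-shogaol (-1.49, SE 0.13, edgeR adjusted p = 2.37e-05). Ifit1, which binds foreign RNA ends, was at 17.7 and 17.2 CPM with LPS and 6.80 and 6.53 CPM with 6-shogaol (-1.39, SE 0.17, adjusted p = 0.00077). Rsad2, the gene of the antiviral enzyme viperin, was at 350 and 390 CPM and 192 and 181 CPM (-0.99, SE 0.09, adjusted p = 5.68e-05). The 3 genes had no overlap between groups, which adds no support to calls made on these same libraries. They remained above untreated cells, where Isg15 was at 5.18 and 5.12 CPM.

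The other antiviral genes called lower were Rtp4 (-1.91), Xaf1 (-1.55), the nucleic acid sensor Zbp1 (-1.37), Ifi211 (-1.29), Oasl2 (-1.18), Oasl1 (-1.09), Cmpk2 (-0.96), Ifi204 (-0.81), Oas3 (-0.79), Oas1a (-0.70) and Ddx58, the gene of the RNA sensor RIG-I (-0.67). Rtp4, Oasl1 and Oasl2 kept their calls without each of the 4 libraries. Ifi211 (-1.34 to -1.24), Ifi204 (-0.82 to -0.78), Oas1a (-0.763 to -0.635) and Ddx58 (-0.785 to -0.537) lost theirs in every case. Oas3 (-0.90 to -0.67) kept its call only without LPS replicate 1. Cmpk2 (-1.11 to -0.83) lost its call without 6-shogaol replicate 1 or LPS replicate 2, and Xaf1 and Zbp1 without 6-shogaol replicate 2. Ifitm3, an interferon-induced membrane protein gene outside the lists, went from 5.03 and 6.43 CPM to 1.64 and 1.16 CPM (-2.05, edgeR adjusted p = 0.00583, called without LPS replicate 1 and not without the other 3 libraries, -2.30 to -1.80). Among the GTPases that interferon induces, Gbp2 (20.5 and 16.4 to 6.28 and 8.03 CPM, -1.35) and Gbp3 (-1.21) fell, of 9 tested. Gbp2 (-1.54 to -1.19) kept its call without each library, and Gbp3 (-1.32 to -1.09) only without LPS replicate 1. The Ifi200, Oas, Ifit and Gbp genes have close paralogs in clusters, and how shared reads were assigned between the copies limits each single value. Of 18 genes of MHC class I and the immunoproteasome, none was called by DESeq2, limma-voom or edgeR on all 12 libraries with the count filter. Their median was -0.20, 17 lay below 0, and 5 had an interval below 0 (6.46% of all genes did). For 15 of the 18, both 6-shogaol libraries lay below both LPS libraries, against 27.2% of all genes. In edgeR, 5 were called lower with the 4 compared libraries fitted alone and 1 without a count filter.

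Among the regulators of this response, Irf7, the interferon-induced transcription factor that amplifies interferon genes, was at 28.5 and 37.99 CPM with LPS and 13.8 and 12.3 CPM with 6-shogaol (-1.35, SE 0.19, edgeR adjusted p = 0.00163). Usp18, which removes ISG15 from proteins and damps interferon receptor signalling, was at 18.4 and 18.0 CPM and 10.9 and 9.77 CPM (-0.82, SE 0.13, adjusted p = 0.00518). Jak2, a kinase of cytokine receptors, went from 175 and 182 CPM to 125 and 120 CPM (-0.55, SE 0.09, adjusted p = 0.00518). These were the 3 genes called of 23 interferon regulatory factors, STATs and receptors, and the list median was -0.01. Irf7 lost its call without 6-shogaol replicate 2 (-1.26) or LPS replicate 2 (-1.13), Jak2 (-0.57 to -0.51) kept its call only without LPS replicate 1, and Usp18 (-0.89 to -0.74) only without 6-shogaol replicate 1. Irf1, another factor of this family, differed by -0.10 without a call. Irf9 was at 19.2 and 18.3 CPM and 13.8 and 12.7 CPM, without overlap and without a call (-0.50, edgeR adjusted p = 0.117).

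**Figure D3:**
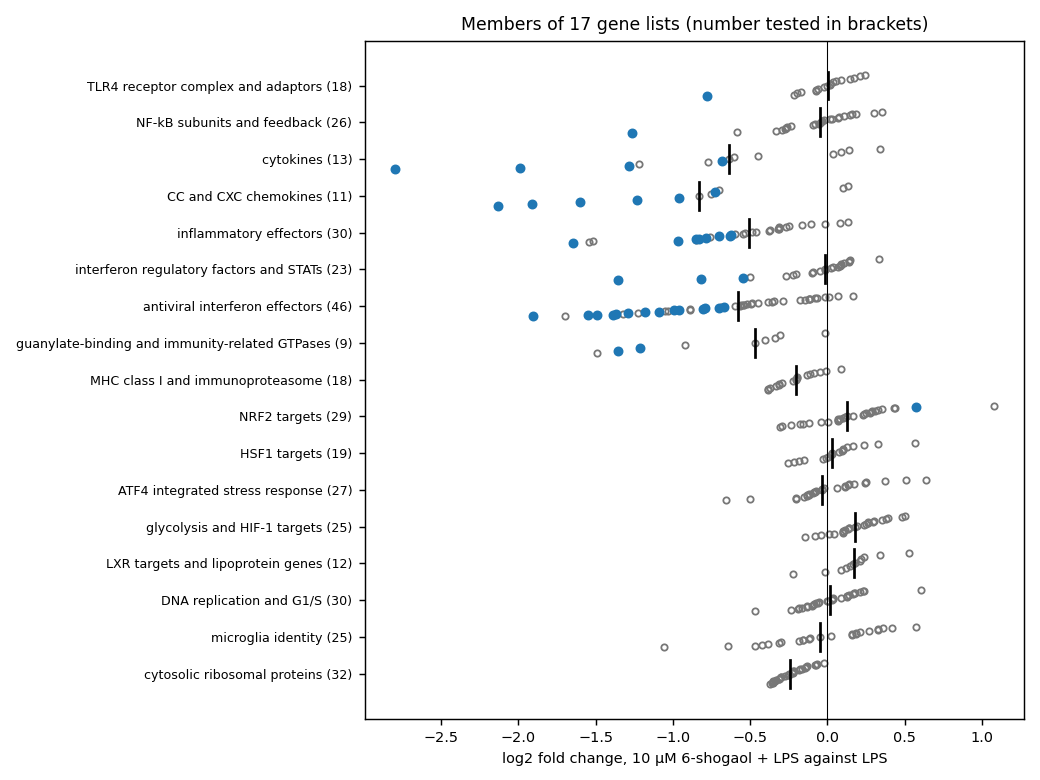
Log2 fold change of 10 µM 6-shogaol with LPS against LPS (horizontal axis) for the members of 17 gene lists (rows, with the number tested in brackets); filled points are called genes, open points are not called and bars are list medians. Called genes gather in the cytokine, chemokine, effector and interferon rows, while the NF-kB row holds 1 (Traf1) and the NRF2 row 1 (Ephx1, higher).

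The promoters of the genes that moved together were compared by short motifs, since the lists above name transcription factors. For 6 called genes, the 220 bases before the RefSeq transcription start are shown 5′ to 3′ on the gene's strand (GRCm38.p6), in lower case with motif matches in capitals. Il6 lies at chr5:30012894-30013113 (plus strand), Cxcl2 at chr5:90903679-90903898 (plus) and Cxcl10 at chr5:92348890-92349109 (minus). Isg15 lies at chr4:156200819-156201038 (minus), Ifit1 at chr19:34640669-34640888 (plus) and Rsad2 at chr12:26456453-26456672 (minus). The first 3 are shown for the NF-kB-binding kappa B site, and Cxcl10 and the last 3 for the interferon-stimulated response element (GAAA, any 2 bases, then GAAA again), the motif of many interferon-induced genes.
Il6: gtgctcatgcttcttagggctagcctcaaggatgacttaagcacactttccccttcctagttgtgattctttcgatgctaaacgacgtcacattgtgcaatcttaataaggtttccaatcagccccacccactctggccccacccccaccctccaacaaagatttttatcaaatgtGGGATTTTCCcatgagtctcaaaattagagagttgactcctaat
Cxcl2: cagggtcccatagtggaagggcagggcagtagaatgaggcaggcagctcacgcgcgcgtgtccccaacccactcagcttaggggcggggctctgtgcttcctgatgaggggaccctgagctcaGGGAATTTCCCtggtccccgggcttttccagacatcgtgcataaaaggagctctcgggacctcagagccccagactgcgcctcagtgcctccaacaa
Cxcl10: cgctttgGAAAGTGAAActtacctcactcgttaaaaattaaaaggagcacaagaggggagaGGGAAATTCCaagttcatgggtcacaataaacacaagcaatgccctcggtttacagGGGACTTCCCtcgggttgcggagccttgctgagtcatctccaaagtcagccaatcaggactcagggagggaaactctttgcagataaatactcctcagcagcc
Isg15: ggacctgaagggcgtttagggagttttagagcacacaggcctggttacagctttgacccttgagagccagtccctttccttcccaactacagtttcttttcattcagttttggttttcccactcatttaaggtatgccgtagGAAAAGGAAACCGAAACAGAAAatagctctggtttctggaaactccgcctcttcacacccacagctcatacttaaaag
Ifit1: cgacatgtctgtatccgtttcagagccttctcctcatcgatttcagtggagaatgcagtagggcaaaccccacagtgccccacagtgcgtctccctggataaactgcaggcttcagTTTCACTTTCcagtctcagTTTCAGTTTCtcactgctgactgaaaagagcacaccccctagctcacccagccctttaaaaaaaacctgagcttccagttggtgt
Rsad2: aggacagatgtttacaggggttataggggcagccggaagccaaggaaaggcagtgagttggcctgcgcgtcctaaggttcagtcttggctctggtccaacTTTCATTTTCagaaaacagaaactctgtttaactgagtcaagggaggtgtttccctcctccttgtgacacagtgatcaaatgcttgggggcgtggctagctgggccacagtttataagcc

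In these windows, Il6 held 1 kappa B match, 44 to 35 bases before the start, Cxcl2 held overlapping matches on both strands within 97 to 87 bases before it, and Cxcl10 held kappa B matches at 159 to 150 and 103 to 94 bases and a response element at 213 to 204 bases. Isg15 held 3 overlapping response elements between 78 and 57 bases, Ifit1 held 2 on the opposite strand (104 to 95 and 85 to 76 bases) and Rsad2 held 1 on the opposite strand (120 to 111 bases). Both strands of the 250 bases before the start were searched, for the 9428 tested genes (74.2%) with a RefSeq window. The response element was present in 2.68% of these 9428 windows and in 12 of 54 (22.2%) of genes called lower, among them Gbp2, Gbp3, Oas3, Phf11b and Saa3. The kappa B site was present in 4.19% of all windows and in 6 of 54 (11.1%), namely Il6, Cxcl2, Cxcl10, Ccrl2, Krt23 and Oasl1. Among LPS-raised genes that were not called, 9.05% held the kappa B site and 6.19% the response element.

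The gamma-activated site, TTCNNNGAA, was in 5.84% of all windows and in 2 of the 54. The antioxidant response element, TGACNNNGC, was in 12.1% of all windows and in 9 of the 54 (16.7%). None of the 4 motifs was in the windows of the 7 higher genes that had one. These are descriptions of letters in a fixed window and do not show binding.

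The genes that LPS raises could be examined with libraries outside the comparison. LPS-raised genes were chosen as those higher in LPS with 10 µM 6-gingerol than in untreated cells, by an edgeR call and a rise of 1 or more on the log2 scale, and numbered 349 (2.75% of genes). Of these, 60 were called lower by edgeR with 10 µM 6-shogaol against LPS and none higher, 8 had an interval above 0 (4.38% of all genes did), 174 one below 0 (6.46% of all genes), and DESeq2 and limma-voom called none higher either. Their log2 fold changes had a median of -0.42 and quartiles of -0.83 and -0.17, and 302 (86.5%) lay below 0, against 50.2% of all genes. For 83 of them, the interval lay within a 1.5-fold change. Fitted on the 4 compared libraries alone, edgeR called 4 of the 349 higher, and without a count filter it called 1 higher. Without each of the 4 libraries in turn, 18 (6-shogaol replicate 2), 28 (LPS replicate 2), 30 (6-shogaol replicate 1) and 38 (LPS replicate 1) of the 349 were called lower, with medians of -0.44 to -0.39.

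Genes raised more by LPS lay lower with 6-shogaol. Of the 204 genes raised by a log2 of 1 to 2, 20 were called lower, and the median was -0.29. Of the 69 raised by 2 to 3, 6 were called, with a median of -0.56. Of the 76 raised by 3 or more, 34 were called, with a median of -1.04. Across the 349 genes, Pearson's r between the LPS response and the 6-shogaol difference was -0.52 (Spearman's rho -0.49), a description over genes that share libraries within each axis and are not independent replicates. The plot of LPS-responsive genes shows this slope with wide scatter.

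**Figure D4:**
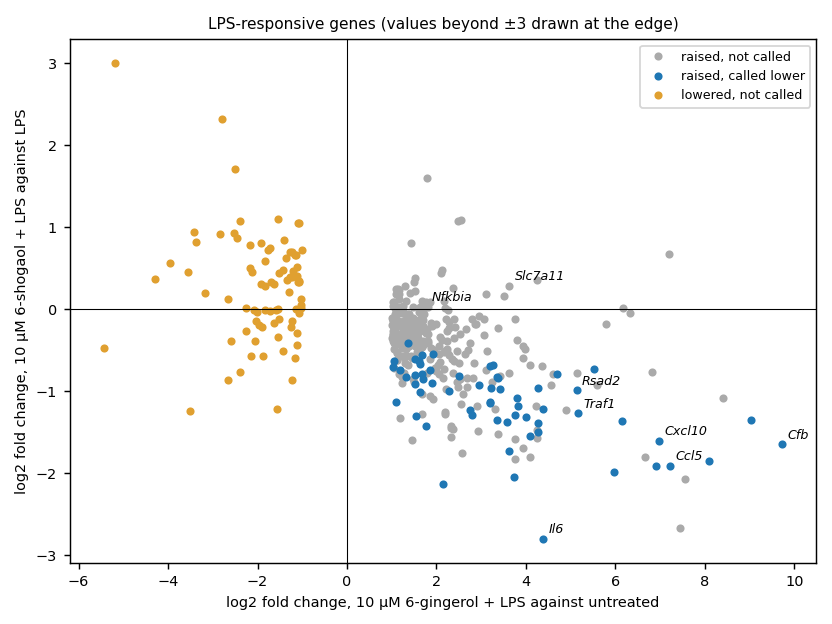
Each point is an LPS-responsive gene, by its log2 fold change between 10 µM 6-gingerol with LPS and untreated cells (horizontal axis) and between 10 µM 6-shogaol with LPS and LPS (vertical axis), groups with no shared library. Points to the right slope downward from near 0 to Cfb at -1.65 and Il6 at -2.80, while Slc7a11 and Nfkbia stay near 0.

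By role, 19 of the 40 LPS-raised genes in the interferon lists were called lower (median -0.90), and 19 of the 37 in the inflammation lists (median -0.76). Of the 272 in neither group of lists, 22 were called (median -0.34). Within the LPS-raised genes that had a promoter window, the 24 with a response element had a median of -0.85 with 11 called lower, and the 233 without had a median of -0.41 with 36 called. The 24 with a kappa B site had a median of -0.52 with 5 called, and the 233 without had a median of -0.42 with 42 called. No test was made of these differences between subsets.

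Some genes that LPS raised strongly differed little with 6-shogaol. Slc7a11, the cystine importer, was at 62.7 and 75.5 CPM with LPS and 90.2 and 78.8 CPM with 6-shogaol, against 4.77 and 5.54 CPM untreated (0.29, interval 0.04 to 0.54, edgeR adjusted p = 0.379). Hp, the haptoglobin gene, was at 1084 and 985 CPM and 1256 and 1049 CPM (0.16). Cybb, the catalytic subunit of the phagocyte NADPH oxidase, was at 1058 and 1060 CPM and 958 and 913 CPM (-0.18), and Igsf6 overlapped between the groups (-0.01). For these 4 genes the interval lay within 1.5-fold. Of the 82 genes that LPS lowered by a log2 of at least 1, chosen in the same way, edgeR called none with 6-shogaol, 12 had an interval above 0 and 3 below, DESeq2 called 1 higher and limma-voom none, and the median was 0.32. Without 6-shogaol replicate 1 that median was 0.187, and in the authors' table it was 0.17. Without a count filter edgeR called 5 of the 82 higher, and on the 4 compared libraries alone it called 4 higher and 1 lower.

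Only 13 of the 73 lower genes were outside the LPS-raised set. In the comparison of 10 µM 6-gingerol with LPS against untreated cells, which called 13.1% of genes and 8.26% as higher, 9 of these were raised under the threshold of a log2 of 1, Insig2 and Lgals9 among them, and 4 had no LPS call (Cd14, Krt23, March11 and the noncoding D330050G23Rik). Mdm2, whose product degrades p53, was in the LPS-raised set and went from 147 and 158 CPM to 90.7 and 91.6 CPM (-0.74, SE 0.11, edgeR adjusted p = 0.00288). Its call held without LPS replicate 1 and not without the other 3 libraries (-0.80 to -0.68). It was the 1 gene called of 17 p53 targets, whose median was 0.03. LPS-raised genes called lower that were in none of the lists included the secretory protease inhibitor Slpi (-0.84), the drug exporter Abcb1a (-1.32), the immune receptor Slamf7 (-1.30), the DNA exonuclease Trex1 (-0.75) and the acyl-CoA synthetase Acsl1 (-0.41). Leaving out any 1 of the 4 libraries ended the calls of Abcb1a (-1.38 to -1.25), Trex1 (-0.80 to -0.69) and Acsl1 (-0.44 to -0.37). Slamf7 (-1.42 to -1.16) kept its call only without LPS replicate 1. Slpi (-0.90 to -0.77) lost its call only without 6-shogaol replicate 2.

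The 8 genes called higher were smaller in size and did not share an LPS class. Rasgrp3, a Ras and Rap activator, was at 54.6 and 56.1 CPM with LPS and 89.8 and 90.5 CPM with 6-shogaol, between LPS and the untreated level of 106 and 118 CPM (0.70, SE 0.10, edgeR adjusted p = 0.00188). Arrb1, the gene of beta-arrestin 1, was at 57.6 and 58.8 CPM and 91.7 and 102 CPM (0.74, SE 0.13, adjusted p = 0.0128), and untreated cells at 67.5 and 92.7 CPM overlapped with 6-shogaol. Efr3b, a membrane anchor of a phosphatidylinositol kinase, was at 6.54 and 7.19 CPM with LPS and 12.3 and 12.7 CPM with 6-shogaol (0.86, SE 0.14, adjusted p = 0.0055). The others were the kinase gene Pim2 (0.70), the cochaperone Dnajb14 (0.68), the potassium channel Kcnj2 (0.58), the epoxide hydrolase Ephx1 (0.57) and the glycogen-branching enzyme Gbe1 (0.55). Leaving out 1 of the 4 libraries ended the call of Rasgrp3 in 1 case (6-shogaol replicate 2) and of the other 7 in all 4 cases, with values of 0.48 to 0.93 and the direction kept. With fragment length as a covariate, Rasgrp3 and Efr3b stayed called and the other 6 did not.

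Of NRF2 targets, genes of antioxidant defence, 1 was called at 10 µM. Ephx1 was the 1 gene called higher of 29 tested, at 49.0 and 48.1 CPM with LPS and 75.7 and 68.9 CPM with 6-shogaol (edgeR adjusted p = 0.0276). None was lower, 9 had an interval above 0 (4.38% of all genes did) and 2 below (6.46%), and the median was 0.13. Both 6-shogaol libraries lay above both LPS libraries for 18 of the 29, against 26.0% of all genes. The median was 0.086 without 6-shogaol replicate 1 and 0.219 without 6-shogaol replicate 2. It was 0.082 with fragment length as a covariate, a fit with no call in this list. When the 4 compared libraries were fitted alone, 8 were called higher and 2 lower, in a fit that called 970 of all genes. Hmox1, heme oxygenase 1, was at 542 and 507 CPM with LPS and 524 and 527 CPM with 6-shogaol (0.00, interval within 1.5-fold), and it was at 226 and 232 CPM untreated. Gclm, Srxn1 and Txnrd1 differed by 0.11, 0.07 and 0.07. Gclc, the catalytic subunit of glutathione synthesis, was at 22.04 and 24.23 CPM and 31.6 and 30.9 CPM, without overlap and without a call (0.43, edgeR adjusted p = 0.258), and Gsta3 was at 1.51 and 1.71 CPM and 4.28 and 2.66 CPM (1.08, adjusted p = 0.249).

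Other stress and growth lists held no called gene at this dose by edgeR fitted on all 12 libraries with the count filter and TMM scaling. The median was 0.03 for 19 HSF1 targets, where Hspa8, the constitutive HSP70 chaperone gene, was at 695 and 701 CPM with LPS and 877 and 874 CPM with 6-shogaol (0.33, edgeR adjusted p = 0.302), the 1 member with an interval above 0. It was -0.03 for 27 ATF4 targets (3 intervals above and 3 below 0, 1 lower call by DESeq2), 0.02 for 30 DNA replication genes (2 above, 1 below) and 0.18 for 25 glycolysis and hypoxia genes (9 above, against 4.38% of all genes, none below, 1 higher call by DESeq2). Fitted on the 4 compared libraries alone, edgeR called 8 of the glycolysis genes higher, 3 ATF4 targets higher and 2 lower, and 1 HSF1 target higher and 1 lower. The glycolysis median was 0.089 with fragment length as a covariate. Of 12 LXR targets and lipoprotein genes (median 0.17, 3 intervals above 0, 1 higher call by DESeq2), Scd2, a stearoyl-CoA desaturase, was nearest to a call, at 1162 and 1180 CPM with LPS and 1620 and 1756 CPM with 6-shogaol (0.53, edgeR adjusted p = 0.078). Genes of 32 cytosolic ribosomal proteins all lay below 0, with a median of -0.24, 8 intervals below 0 (6.46% of all genes) and no call. With fragment length as a covariate that median was -0.18, and fitted on the 4 compared libraries alone 13 were called lower.

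At the same dose, the 2 ginger phenols were compared directly, as 1 pair. Against LPS with 10 µM 6-gingerol, LPS with 10 µM 6-shogaol had 71 genes called lower (0.559%) and 10 higher (0.0787%) of 12705. Of the tested members, 4 of 13 cytokines, 6 of 11 chemokines, 7 of 30 inflammatory effectors and 14 of 46 antiviral genes were called lower. Il6 was at 174 and 163 CPM with 6-gingerol against 32.9 and 25.5 CPM with 6-shogaol, a log2 fold change of -2.53 (SE 0.16, edgeR adjusted p = 8.02e-07). Cfb differed by -1.47, Ccl5 by -1.66, Cxcl10 by -1.51, Isg15 by -1.48, Irf7 by -1.11 and Traf1 by -1.25, each called. Compounds that differ by a dehydration, a β-hydroxy ketone in 6-gingerol and an α,β-unsaturated ketone in 6-shogaol, thus differed in these transcripts at 10 µM.

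Where the compounds were not called different, the intervals were narrow for some genes. Nfkbia differed by -0.12 (95% interval -0.33 to 0.08) and Hmox1 by 0.05 (-0.18 to 0.28). Saa3 was at 12630 and 12770 CPM with 6-gingerol and differed by -0.68 without a call (interval -0.999 to -0.355, edgeR adjusted p = 0.0613). Acod1 (-0.51, interval -0.76 to -0.26) and Nos2 (-0.47, interval -0.88 to -0.05) did not pass either, although the intervals excluded 0. Among the higher genes, Rasgrp3 (0.56), Arrb1 (0.64), Efr3b (0.70), Ephx1 (0.58), Pim2 (0.64) and Dnajb14 (0.64) were called against 6-gingerol, and Kcnj2 (0.51) and Gbe1 (0.37) were not. These 6 calls ended with 6-shogaol replicate 1, 6-shogaol replicate 2 or 6-gingerol replicate 1 left out, where 0 genes were called higher against 6-gingerol. The same 6-shogaol libraries enter this and the main comparison, so the values stand side by side and are not separate evidence.

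**Figure D5:**
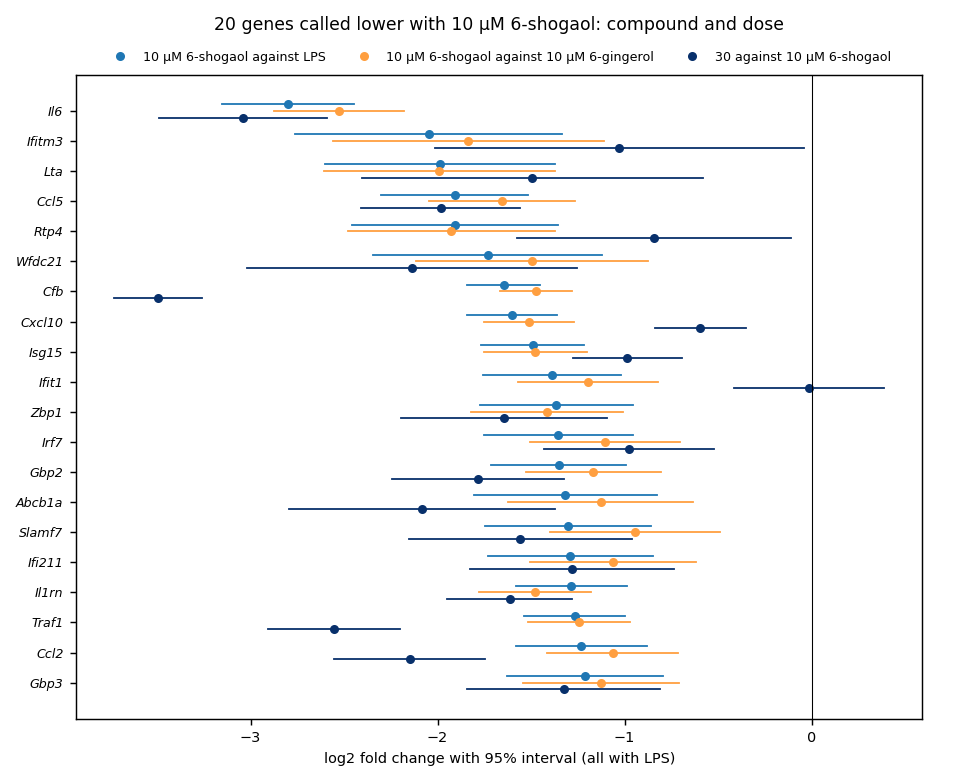
Log2 fold change with its 95% interval (horizontal axis) for 20 genes called lower with 10 µM 6-shogaol that had at least 5 CPM with LPS (rows); blue is 10 µM 6-shogaol against LPS, orange 10 µM 6-shogaol against 10 µM 6-gingerol and dark blue 30 against 10 µM 6-shogaol, all with LPS. Il6 lies near -2.80, -2.53 and -3.04, and Ifit1 is the gene whose dose interval is centred on 0.

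From 10 to 30 µM 6-shogaol, 1212 genes were called lower (9.54%) and 1251 higher (9.85%). These doses were compared to place the 10 µM values, and the 10 µM libraries are shared with the main comparison. Of the 349 LPS-raised genes, 163 were lower at 30 than at 10 µM and 9 higher, with a median of -0.65. Il6 went from 32.9 and 25.5 CPM to 2.93 and 4.11 CPM (-3.04, SE 0.21, edgeR adjusted p = 3e-07), below the untreated 9.75 and 6.33 CPM. Cfb went to 7.63 and 7.33 CPM (-3.49), Cxcl2 to 5.07 and 6.20 CPM (-2.82) and Traf1 to 2.99 and 2.71 CPM (-2.56).

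Values of the antiviral list ranged widely over this step. Ifit1 was at 5.31 and 7.83 CPM at 30 µM, overlapping with 10 µM (-0.02, interval -0.41 to 0.39) and Rsad2 at 127 and 130 CPM (-0.53, called). Zbp1, a sensor of nucleic acids, went from 2.93 and 2.61 CPM to 0.916 and 0.845 CPM (edgeR adjusted p = 0.000497). The chemokine gene Cxcl10 was at 51.2 and 58.1 CPM (-0.60, called). Of the LPS-raised genes, 20 of 40 in the interferon lists were called lower at the higher dose, 1 higher, with a median of -0.64, and 32 of 37 in the inflammation lists, none higher, with a median of -1.21, against a median of -0.59 for the 272 in neither. At 10 µM against LPS the corresponding medians were -0.90 and -0.76, so the order of these groups of lists differed between the steps. That difference in order was not tested.

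Some lists with 1 or no called gene at 10 µM held more between the doses, where 19.4% of all genes were called in either direction, while none of the 32 cytosolic ribosomal protein genes was (median 0.15). Of 29 NRF2 targets, 17 were higher at 30 than at 10 µM and 2 lower (median 0.53), with Gclm going from 71.0 and 64.0 CPM to 140 and 136 CPM (1.03, SE 0.10, edgeR adjusted p = 5.31e-06). Hmox1 was not called in this step (-0.28). Of 30 DNA replication genes, 28 were higher (median 1.07), and of 19 HSF1 targets 6 were higher, with Hspa8 at 2408 and 2460 CPM (1.48). Of 26 NF-kB genes, 12 were lower and 1 higher (median -0.27), with Nfkbia at 139 and 126 CPM (-0.17, not called), and Myd88 fell (-0.49). The difference between the steps was not tested.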

How the data were processed

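Expected counts were estimated by RSEM, per the file headers of the deposited tables, one table per library with gene identifier, length, effective length, expected count and TPM. Per the submitters' processing notes, the tools were STAR 2.7.11b and RSEM 1.3.3, FastQC 0.12.1 and Trimmomatic 0.39, DESeq2 1.44.0 and R 4.4.2, and the build was GRCm38, with no role or order given. The normalization of a further deposited table of normalized signal, made by the authors, is not given in the sources used here, and that table served only as an alternative. TPM values are those the authors deposited. The difference between a gene's length and its effective length, other columns per the file headers, gave the mean fragment length. Libraries were stranded (TruSeq) per the labels' protocols, and the strand setting of the counting is not given in the sources used here.

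GENCODE M21 (GRCm38) gave a symbol for 97.8% of the 43432 identifiers. Expected counts (7.03% of values not whole) were rounded, filtered by filterByExpr and scaled by TMM in edgeR 4.0.16 (R 4.3.3). All 12 libraries were fitted with 6 group means and no covariate (6 residual degrees of freedom, common biological coefficient of variation 9.45%). Quasi-likelihood F tests with robust dispersion were 2-sided, with Benjamini-Hochberg adjustment over all 12705 genes of a comparison and a threshold of 0.05. Intervals are 95%, with a median half-width of 0.29 on the log2 scale, and values in brackets after a gene are log2 fold changes. Paired values are library 1 and library 2. The test was checked on simulated counts with known changes. Alternatives used DESeq2 1.42.0 and limma 3.58.1 (voom, and trend on the deposited signal), other scalings, filters and sets of libraries, each library left out, the replicate number as a block and fragment length as a covariate.

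Named genes were all those called higher, the 20 called lower with the largest fold change among those of at least 5 CPM with LPS, called or abundant members of the 31 lists, and 19 genes of the pathways concerned, of which 1 is not reported here. Genes named for holding a call or an LPS level were chosen after their values were seen. Members, lists and rules were chosen with earlier results of these data known. The LPS response was taken from the 10 µM 6-gingerol libraries and untreated cells because these share no library with the comparison. Promoter windows are from RefSeq (GRCm38.p6).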

Additional observations from a re-analysis of the deposited data

How the results depend on the processing

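The 81 calls against LPS numbered 311 without a count filter, 48 with fragment length as a covariate, 970 with the compared groups fitted alone, 167 without the untreated libraries and 34 by limma on the authors' table, and 18 to 44 with 1 library left out. All 81 genes kept their direction in each of the 14 alternatives (80 of 80 in the authors' table, which lacks 1), and 47 stayed called with the covariate, 75 by DESeq2 (120 calls), 75 by limma-voom (79 calls) and 30 in the authors' table. Against 10 µM 6-gingerol, the 81 calls became 419 without a filter and 170 with the compared groups alone, and 16 to 49 with 1 library left out. Between the doses, 2463 calls became 969 to 1681. The lone library left in a group was assumed to vary like the others.

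The 60 LPS-raised genes called lower became 100 without a filter, 136 with the compared groups alone, 29 in the authors' table and 18 to 38 with 1 library left out. Their median of -0.42 was -0.81 for genes raised by a log2 of at least 2, -0.34 with library totals, and -0.37 when chosen from LPS against untreated and compared with 6-gingerol. Library totals moved the median of all genes by 0.07. Running every alternative on the LPS-raised genes and on the gene lists was decided after seeing the data.

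Replicate numbers did not pair the libraries: over 15 pairs of groups, the correlation of same-numbered deviations ran from -0.312 to 0.178. With the replicate number as a block, calls were 80 against LPS, 81 against 6-gingerol and 2516 between the doses, and 58 of the LPS-raised genes were called lower.

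Of the 40 genes followed in all 14 alternatives, 32 were called. The calls of 11 (Ccl2, Ccl5, Cfb, Cxcl10, Ifit1, Il1rn, Il6, Isg15, Rsad2, Tnf and Traf1) held in each of them. Acod1, Nos2 and Hspa8, not called, passed in 1 or 2 alternatives. No called value changed sign, and 6 values of uncalled genes did. With 2 libraries a group, differences smaller than the half-width of a gene's interval could not be called, and larger ones could also go uncalled. A call needed an adjusted p under 0.05, which is stricter than an interval that excludes 0. Ccl3 (-0.76), Il1a (-0.60) and Nos2 (-0.54) were not called, while the median half-width was 0.29.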

Other observations

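Gm29216, annotated as an unprocessed pseudogene and outside the lists, differed widely within groups: it was at 408 and 1334 CPM with LPS and 53.4 and 165 CPM with 10 µM 6-shogaol, and its log2 fold change of -2.99 did not pass the test (edgeR adjusted p = 0.652). The untreated libraries held 675 and 28.3 CPM. It was singled out after its values were seen, as an uncalled gene of high level with a large difference.

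Of 25 microglia identity genes tested with 10 µM 6-shogaol, none was called by DESeq2, limma-voom or edgeR on all 12 libraries with the count filter. There were 3 intervals above 0 (4.38% of all genes) and 2 below (6.46%). The median was -0.05, and 0.02 with either 1 of the LPS libraries left out. With the 4 compared libraries fitted alone, edgeR called 1 higher and 2 lower, and without a count filter 2 lower. Trem2, a lipid-sensing receptor of microglia, was at means of 40.1 CPM with LPS and 48.3 CPM with 6-shogaol (0.27). Csf1r, the receptor for the growth factor that microglia depend on, differed by 0.21 and Itgam by 0.02.

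Of 30 nuclear-encoded respiratory chain genes, 27 lay below 0 with a median of -0.14, and of 13 mitochondrially encoded mRNAs, 11 lay below 0 with a median of -0.09. No gene of either list was called by DESeq2, limma-voom or edgeR on all 12 libraries with the count filter, and 2 and 0 intervals excluded 0. Fitted on the 4 compared libraries alone, edgeR called 4 respiratory chain genes lower. Without a count filter it called 1 mitochondrially encoded mRNA lower. The respiratory chain median was -0.215 without LPS replicate 2. The direction of the mitochondrially encoded median turned with fragment length as a covariate (0.09), and it was -0.01 without 6-shogaol replicate 2.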
